A study of Mus musculus with 12 samples.

Results

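Messenger RNA of CD4 thymocytes that lack Satb1 was compared with that of CD4+CD8+ double-positive (DP) thymocytes that lack it, to describe which differences between these stages of T cell development remain when Satb1 is deleted. The comparison took every library labelled Satb1 knockout (KO), which was 6 of the 12 libraries of the series: 3 of sorted DP cells (DP KO) and 3 of sorted CD4 cells (CD4 KO), joined by gene over the 49997 genes that both stage tables list. The other 6 libraries, 3 of DP cells and 3 of CD4 cells labelled wild type (DP WT and CD4 WT), gave the same stage comparison with Satb1 present and share no library with the KO comparison. All 12 libraries came from mouse thymus and all carry the label tamoxifen, the drug that sets off inducible Cre recombinases, so KO and WT do not differ in that treatment. No source used here gives the Cre driver, the deleted exons, the age of the mice or the sorting gates. The labels number the libraries 1 to 3 as batches and do not say whether each is a separate mouse, so p-values here measure the spread between these libraries, which may in part be technical.

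Satb1 is a chromatin-binding protein that is abundant in thymocytes and helps to organise the genome around genes of T cell development. DP thymocytes rearrange the T cell receptor alpha chain with the Rag1 and Rag2 recombinase while carrying both co-receptors. A receptor that binds self peptide on major histocompatibility complex (MHC) molecules gives a signal that is read out by early response genes such as those of the Egr and Nr4a families. Cells selected on MHC class II then lose CD8, switch on the CD4 lineage factor encoded by Zbtb7b, stop recombination, and gain receptors for survival and for leaving the thymus. Regulatory T cells, marked by Foxp3, branch off within the CD4 cells.

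The 6 KO libraries held 42444073 to 62422640 counts and the 6 WT libraries 22790504 to 53390434. Levels are given in CPM (counts scaled to library size), and a floor of 3 counts, the limit that a count of 0 allows, stood at 0.0465 to 0.134 CPM per library, which covers counting error only. Each stage is 1 deposited table, so a difference between the tables and a difference between the stages cannot be told apart. The ribosomal RNA gene Rn18s-rs5, which poly(A) selection should leave out, was at 511 to 1400 CPM in DP KO, 1280 to 3860 in CD4 KO, 1780 to 9030 in DP WT and 661 to 1440 in CD4 WT; its part in the results was not tested. DP WT 1 and 2 held 0.845 and 0.273 CPM of the female transcript Xist against 190 to 601 in the other 10 libraries. All 12 libraries held the Y-linked Ddx3y, at 40.4 to 127 CPM, so the 6 KO libraries and 4 of the WT libraries each held transcripts of both kinds. The low Xist of DP WT 1 and 2 touches only the values that use WT. Both transcripts also varied within KO. Xist was at 191 to 601 CPM in DP KO and 190 to 435 in CD4 KO, and Ddx3y at 40.4 to 112 and 73.2 to 118. The part of sex in the stage differences was not tested. Where a value is given without DP WT 1 and 2, only 1 DP WT library is left and is assumed to vary like the other groups, so a call lost there comes with fewer libraries.

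Satb1 itself was still read in every KO library. It stood at 2497, 2875 and 2456 CPM in DP KO 1 to 3 and at 1482, 1546 and 1470.0 CPM in CD4 KO 1 to 3, so the CD4 KO libraries were all lower and the groups did not overlap. The stage difference of Satb1 in KO was a log2 fold change of -0.78 ± 0.08 (SE; edgeR quasi-likelihood test, adjusted p = 0.000308) against -0.24 in WT. Where in the gene (chr17:51736187-51833290, minus strand, mm10) the deletion lies is not given, so a count over the whole gene does not measure the loss of functional transcript.

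Cd3e and Cd8a followed the labels of the sorts, while other markers did so only in part in CD4 KO. T cell receptor subunits were present in all libraries, with Cd3e at 273 to 320 CPM in DP KO and 286 to 341 in CD4 KO. Cd8a, which encodes the CD8 alpha chain, stood at 1684, 1693 and 1652 CPM in DP KO 1 to 3 and 168, 153 and 161 CPM in CD4 KO 1 to 3. Every CD4 KO library was thus about an order of magnitude below every DP KO library, and the log2 fold change was -3.36 ± 0.07 (adjusted p = 4.87e-07). Other markers set CD4 KO apart from CD4 WT. Cd8b1 was at 232 to 326 CPM in CD4 KO against 82 to 120 in CD4 WT. Rag1 was at 673 to 842 against 139 to 237, and Zbtb7b at 20.1 to 41.5 against 355 to 413. Cd4 was lower in the CD4 than in the DP libraries in both KO and WT. In bulk RNA, fewer cells of a type and less RNA per cell cannot be told apart, here and in all that follows.

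In the main fit, which does not pair libraries by batch, stage differences in KO were fewer than in WT and lay mainly on the side of genes gained. Of 16910 genes tested, 2348 (13.9%) were higher and 1323 (7.82%) lower in CD4 KO than in DP KO at an adjusted p under 0.05, together 21.7%. With at least a 2-fold difference, 1394 (8.24%) were higher and 164 (0.97%) lower. The same test over 17369 genes in WT called 4855 (28%) higher and 4702 (27.1%) lower, together 55%, or 2392 (13.8%) and 2034 (11.7%) with at least 2-fold. The median log2 fold change over all genes tested was 0.00117 in KO and 0.00441 in WT.

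The counts of lower genes in KO rest on the libraries used. Without CD4 KO 1, CD4 KO 2 or DP KO 1 the count of lower genes was 633, 689 or 786, and the count of higher genes was 1579, 1562 or 1606. With the replicate number as a block, which pairs libraries of the same labelled batch, 3444 genes were higher and 2976 lower in KO. The higher and lower calls in KO were thus more nearly balanced in that fit. In WT the block gave 5055 higher and 4915 lower. The part of the spread between libraries in the number of calls was not tested.

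Genes that WT cells gained between the stages were called the same way in KO in a larger share than genes that WT cells lost. Over all genes tested in KO, higher calls (13.9%) were also more frequent than lower calls (7.82%). Of the 2392 genes at least 2-fold higher in CD4 WT than in DP WT, 1398 (58.4%) were also higher in KO, 984 of them (41.1% of the set) by at least 2-fold. A further 816 (34.1%) did not pass the test in KO, 11 (0.46%) were called the opposite way and 167 were not tested there. Their median log2 fold change was 2.00 in WT and 1.04 in KO. Of the 2034 genes at least 2-fold lower in CD4 WT, 610 (30%) were also lower in KO, and 132 (6.49%) by at least 2-fold. In this set 1129 (55.5%) did not pass, 23 (1.13%) were called the opposite way and 272 were not tested, with a median of -1.89 in WT and -0.40 in KO. Without CD4 KO 1, CD4 KO 2 or DP KO 1 the 610 became 373, 370 or 400, and with the replicate block 930.

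**Figure D1:**
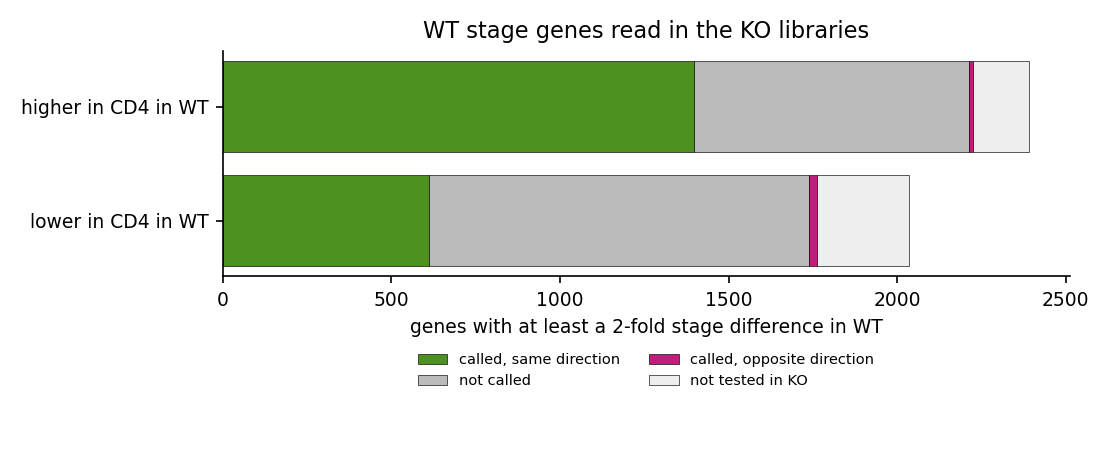
Stacked bars of the number of genes (x axis) with at least a 2-fold stage difference in WT, for genes higher (2392) and lower (2034) in CD4 WT, split by the call of the same gene in the KO comparison. The bar of genes gained is mostly called in the same direction (1398), and the bar of genes lost is mostly not called (1129).

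The test of the difference between the stage differences, fitted over all 12 libraries, called 2649 of 18431 genes (14.4%) with a more positive and 2467 (13.4%) with a more negative CD4 minus DP difference in KO, together 27.8%. It comes from its own fit, so it need not equal the KO value minus the WT value exactly. Among the 2392 genes gained in WT the stage difference was smaller in KO for 1149 (48%) and larger for 24 (1%). Among the 2034 genes lost in WT it was smaller in KO for 1484 (73%). These genes were chosen for a large difference in WT, a choice that by itself favours a smaller value in KO. Over 3973 genes at least 2-fold different between the WT stages and tested in KO, the slope of the KO on the WT log2 fold change through 0 was 0.44, given as a description.

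**Figure D2:**
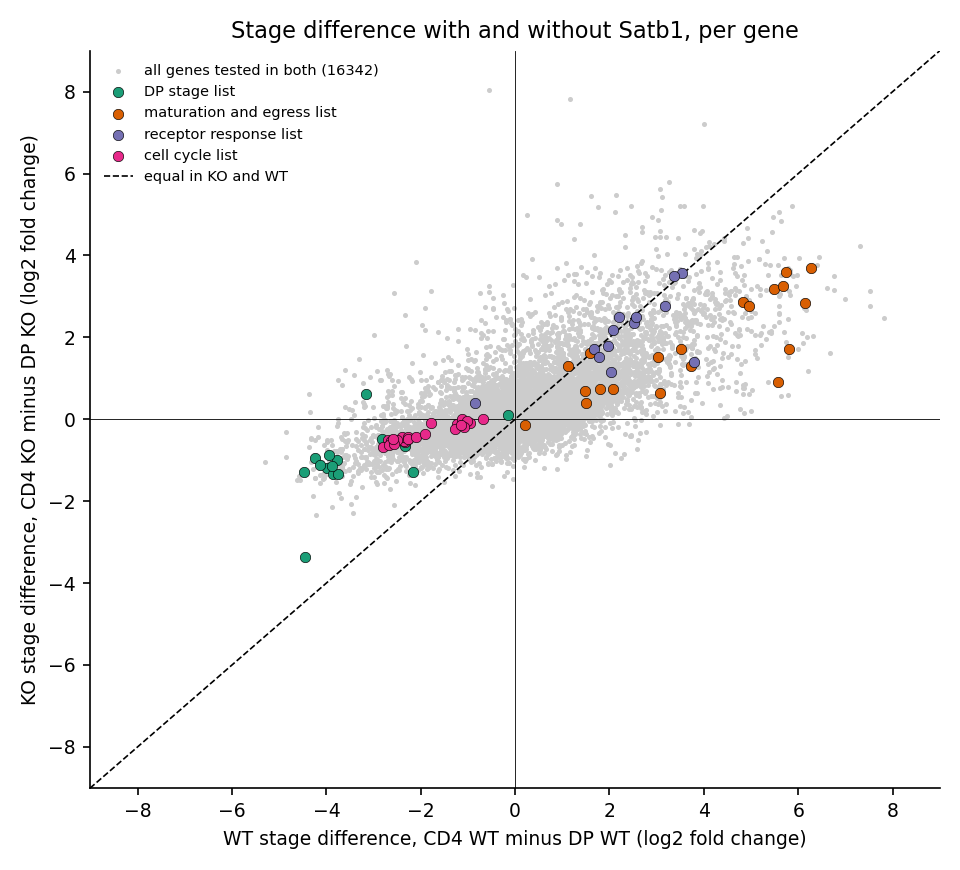
Log2 fold change of CD4 minus DP in KO (y axis) against that in WT (x axis) for each gene tested in both, with 4 gene lists coloured and a dashed line where both are equal. Most receptor response genes lie near the dashed line, apart from Itm2a, Id3 and Nfkbid. The DP stage genes lie above it, Cd1d1 only slightly, and most maturation and egress genes below it.

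By the median gene, the KO libraries lay between the WT stages. On a scale where a gene's mean log2 level in DP WT is 0% and in CD4 WT is 100%, the median of the 2379 genes gained in WT lay at 11.3%, 18.1% and 4.14% in DP KO 1 to 3 and at 66.1%, 65.8% and 57.2% in CD4 KO 1 to 3. The 3 DP KO libraries were thus nearer to DP WT, and the 3 CD4 KO libraries lay short of CD4 WT. For the 2017 genes lost in WT the DP KO libraries lay at 29.3%, 35.2% and 25.4% and the CD4 KO libraries at 51.5%, 56.6% and 49.7%. The KO stages thus lay farther apart for genes gained than for genes lost. WT libraries lie near 0 and 100 by construction. The genes were chosen and the scale was set on these same WT libraries, a choice that by itself favours positions between 0 and 100 for other libraries. For genes gained, DP KO 3 at 4.14% lay close to DP WT 1 at 2.53%.

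**Figure D3:**
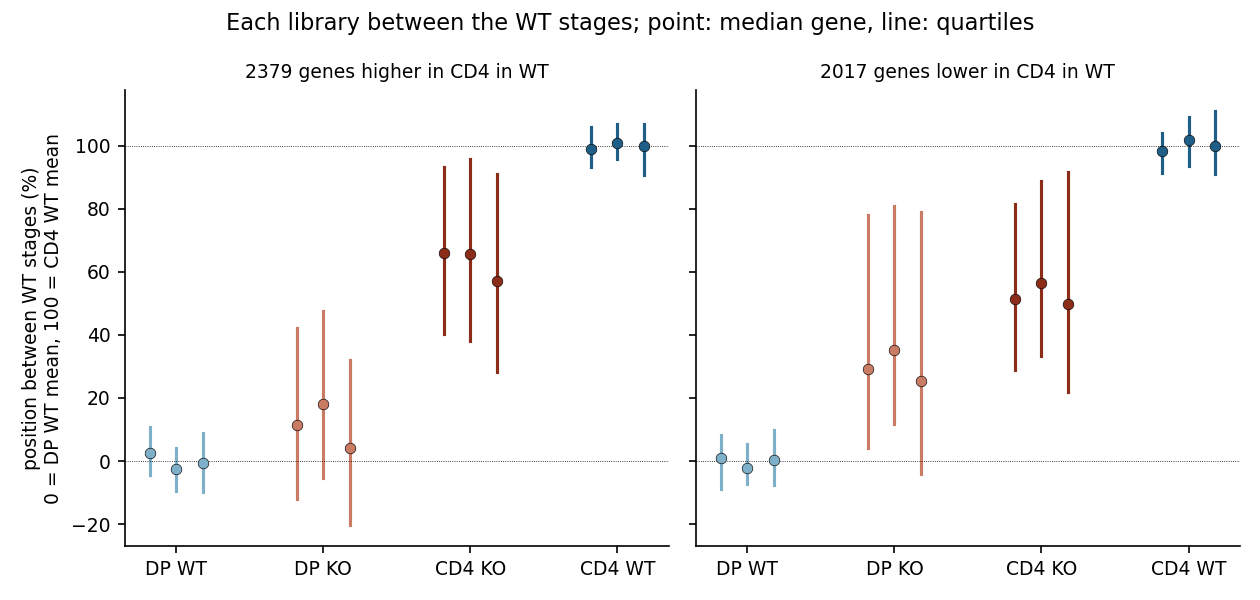
Position of each library between the WT stages (y axis, percent; 0 is the mean of DP WT and 100 the mean of CD4 WT) for genes higher (left) and lower (right) in CD4 WT; points are the median gene of a library and lines the quartiles. DP KO and CD4 KO lie at a mean of 11.2% and 63% for genes gained, and at 30% and 52.6% for genes lost.

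A smaller stage difference came from either stage. Of the 1149 genes gained in WT with a smaller difference in KO, the group mean had moved at least 2-fold from its WT mean in DP KO only for 244 (21.2%), in CD4 KO only for 295 (25.7%), in both for 26 (2.26%) and in neither for 584 (50.8%). Of the 1484 genes lost in WT, the same counts were 277 (18.7%), 566 (38.1%), 25 (1.68%) and 616 (41.5%). Only moves in the direction that makes the stage difference smaller were counted. For these genes lost in WT, a CD4 KO level above that of CD4 WT was thus the more frequent of the 2-fold moves.

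Genes of the DP stage fell in KO by less than in WT. Of 15 genes in this list, 13 were lower in CD4 KO than in DP KO, against 7.82% of all genes tested, and the median log2 fold change was -1.12 in KO and -3.86 in WT. The difference between the stage differences was called for 14 of the 15, each with the more positive value in KO, against 14.4% of all genes tested. Rag1, the catalytic recombinase subunit (chr2:101638252-101649532, minus strand), stood at 1984, 1735 and 1807 CPM in DP KO 1 to 3 and at 714, 673 and 842 CPM in CD4 KO 1 to 3. The CD4 KO libraries were all lower, at 40.4% of the DP KO mean, while in WT only 4.5% was left. The log2 fold change was -1.29 ± 0.10 in KO (adjusted p = 0.000124) and -4.47 in WT, and these differed by 3.16 (adjusted p = 4.78e-07). The DP KO levels were below the 4230 to 4570 CPM of DP WT, and the CD4 KO levels above the 139 to 237 CPM of CD4 WT.

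The Rag1 promoter is shown because E proteins, which drive Rag1 in DP cells, bind E-box motifs. The run covers the 250 bases before the annotated start in RefSeq (chr2:101649533-101649782, minus strand, GRCm38.p6), with CAGCTG and CACCTG, searched on both strands, in capitals.
Rag1: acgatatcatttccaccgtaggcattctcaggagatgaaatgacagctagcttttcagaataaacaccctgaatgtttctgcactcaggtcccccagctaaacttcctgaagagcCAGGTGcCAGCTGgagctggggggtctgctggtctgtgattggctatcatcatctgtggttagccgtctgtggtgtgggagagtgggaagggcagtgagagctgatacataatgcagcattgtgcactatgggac
It holds 1 match of each, the CACCTG on the other strand. CAGCTG occurs in 13% and CACCTG in 17.2% of 32851 such promoter windows, so these matches are a description. Among the 11 DP stage genes matched to the table, 3 held CAGCTG (Rag1, Ptcra and Arpp21) and 2 held CACCTG (Rag1 and Arpp21). A gene was counted if any of its windows held the motif, while the percentages are per window.

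The other recombination genes also fell by less in KO. Rag2, the partner of Rag1, had a log2 fold change of -0.95 ± 0.13 in KO and -4.23 in WT, with 51.2% and 5.32% of the DP level left in CD4 cells. Dntt, which adds bases at receptor junctions, kept 49.3% in KO and 7.28% in WT. Of genes with a less known place in the DP programme, the RNA-binding Arpp21 kept 54%, the endoribonuclease Endou 45% and the cystine transporter Slc7a11 45.4% in KO, against 6.56%, 6.82% and 5.67% in WT. The adjusted p of the difference was 3.20e-08, 4.62e-08, 2.15e-08, 8.78e-07 and 1.52e-07 in the order named. Each share is relative to the DP level of the same genotype. Slc7a11 was already low in DP KO, at a mean of 8.026 CPM against 172 in DP WT. Its CD4 KO mean of 3.644 CPM was below the 9.758 CPM of CD4 WT. Rag2 was also lower in DP KO than in DP WT (50.27 against 207.5 CPM). It was higher in CD4 KO than in CD4 WT (25.73 against 11.04 CPM), as were Dntt, Arpp21 and Endou.

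The CD8 chains separated from each other. Cd8b1, the beta chain, stood at 684, 669.8 and 719 CPM in DP KO 1 to 3 and 252, 232 and 326 CPM in CD4 KO 1 to 3, so its groups did not overlap and 39.1% was left in KO against 6.89% in WT. Cd8a kept 9.58% in KO and 4.53% in WT. The stage difference of Cd8b1 was smaller in KO by 2.50 (adjusted p = 1.59e-06) and that of Cd8a by 1.08 (adjusted p = 0.0186), the latter 0.92 and not called with 1 DP WT library left, without DP WT 1 and 2 (adjusted p = 0.145). In KO, then, the fold of Cd8a was the one nearer to that of WT; the 2 genes were not tested against each other.

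Ptcra, the pre-T alpha chain used before the DP stage, did not fall. It stood at 5.90, 6.80 and 4.48 CPM in DP KO 1 to 3 and 9.83, 8.88 and 7.13 CPM in CD4 KO 1 to 3, with every CD4 KO library above every DP KO library. The log2 fold change of 0.61 ± 0.19 missed the threshold (adjusted p = 0.0505) and passed it when libraries were paired by the replicate block (adjusted p = 0.00337), in which it was the 1 gene of the list that was higher in CD4 KO. In WT it was -3.16, and the difference of 3.74 was called (adjusted p = 1.55e-07). Cd1d1, which presents lipids to invariant T cells, was the other gene of the list that did not pass, at 0.11 ± 0.07 in KO and -0.16 in WT; with the replicate block its difference of 0.24 was called (adjusted p = 0.0395).

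**Figure D4:**
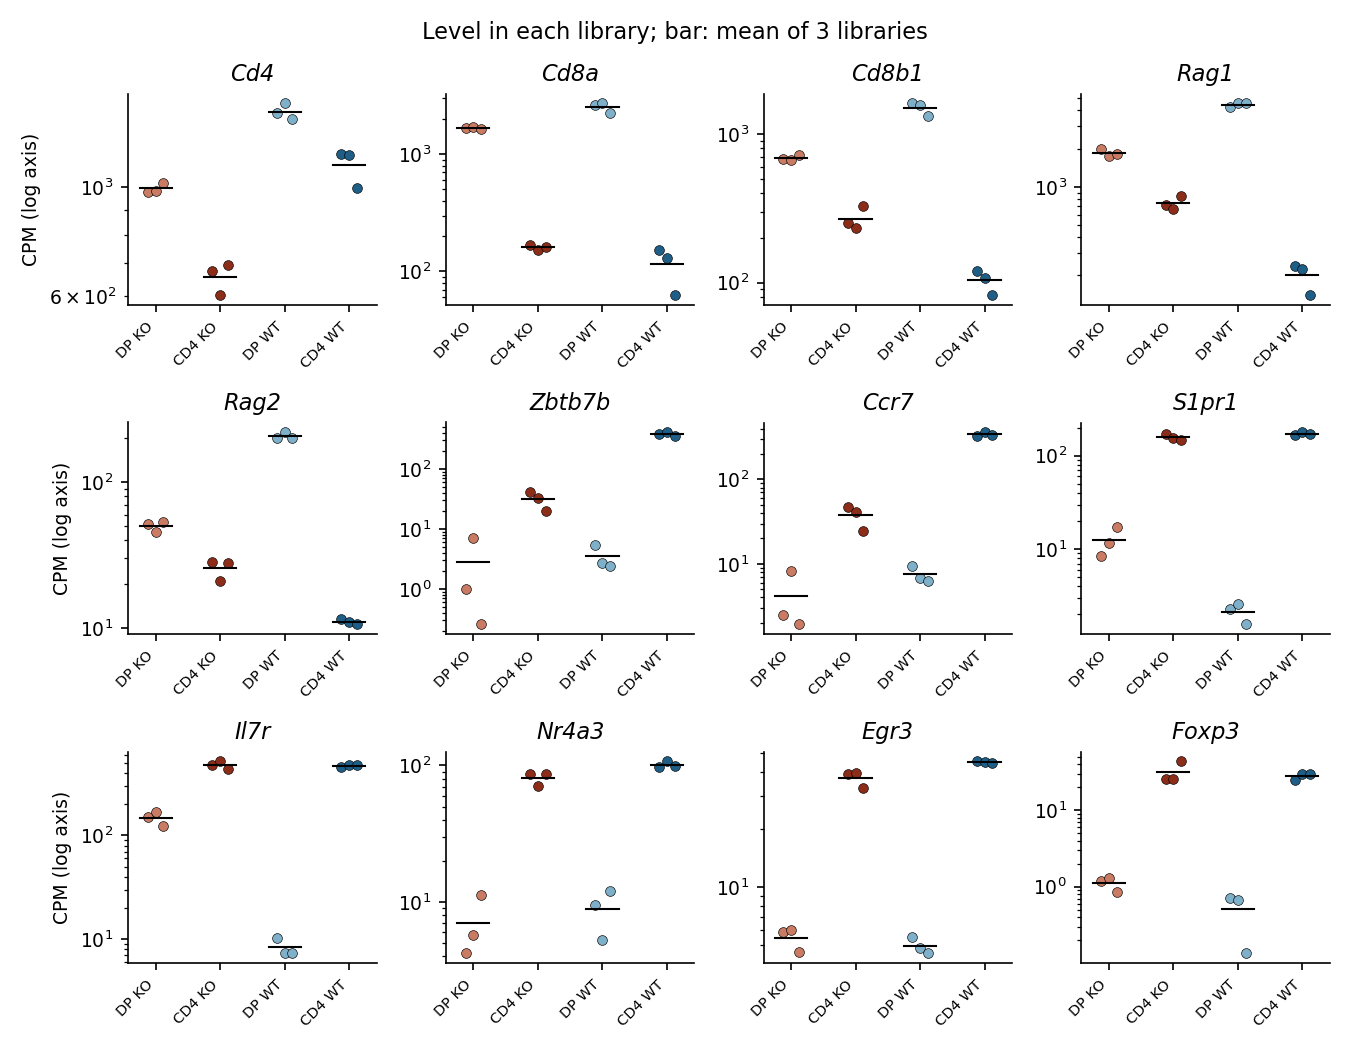
Level of 12 genes in each library (y axis, CPM on a log axis) by group (x axis), with a bar at the mean of 3 libraries. Cd8a lies at 1652 to 1693 CPM in DP KO and 153 to 168 in CD4 KO, Rag1 and Rag2 fall less in KO than in WT, and Nr4a3, Egr3 and Foxp3 are higher in all CD4 KO than in all DP KO libraries.

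Genes induced by T cell receptor signals rose in KO with a median fold change near that of WT, while their summed level was lower in KO at both stages. The sum was 453 to 565 CPM in DP KO and 1520 to 1800 in CD4 KO, against 612 to 950 in DP WT and 3240 to 3510 in CD4 WT. Such a sum can rest on a few abundant genes. All 13 genes of the receptor response list were higher in CD4 KO than in DP KO, against 13.9% of genes tested, with a median log2 fold change of 2.17 in KO and 2.19 in WT. Nr4a3, an orphan nuclear receptor (chr4:48045078-48086447, plus strand), stood at 4.21, 5.78 and 11.2 CPM in DP KO 1 to 3 and 86.7, 70.7 and 86.4 CPM in CD4 KO 1 to 3. The 3 CD4 KO libraries lay close together and far above the DP KO libraries. The log2 fold change was 3.56 ± 0.32 (adjusted p = 0.000189) in KO and 3.53 in WT, with a difference of 0.01 ± 0.42 (SE; adjusted p = 0.986).

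Egr3, a zinc finger factor of the same response, stood at 5.82, 5.96 and 4.57 CPM in DP KO 1 to 3 and 38.9, 39.1 and 32.9 CPM in CD4 KO 1 to 3, again without overlap. Its log2 fold change was 2.78 ± 0.13 in KO and 3.17 in WT. Nab2, a co-repressor of Egr factors, gave 2.50 ± 0.20 and 2.55, and Pdcd1, the gene of the brake receptor PD-1, gave 2.51 ± 0.20 and 2.19. Of the remaining 9 genes, Cd69, Cd5, Egr1, Egr2, Nr4a1 and Cd83 had KO log2 fold changes of 1.51 to 3.50 and no called difference from WT. Such a p does not show that the stage differences were equal: for Egr3 the difference was -0.42 ± 0.16 (adjusted p = 0.0711).

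The difference from WT was called for 3 of the 13 genes of the list, a share near the 27.8% of all genes tested. With the replicate block it was also called for Egr3 (-0.43, adjusted p = 0.0226). Itm2a, a membrane protein of selected thymocytes, gained 1.40 in KO and 3.80 in WT, and Nfkbid, an inhibitor-like regulator of NF-kB, gained 1.15 ± 0.11 and 2.04. The difference of Nfkbid was -0.91, and -0.56 and not called with 1 DP WT library left, without DP WT 1 and 2 (adjusted p = 0.0602). Id3, which blocks E proteins, was 0.39 ± 0.11 in KO and -0.85 in WT, a difference of 1.22 (adjusted p = 0.000391). The KO call of Id3 was marginal (adjusted p = 0.0429) and was lost with DESeq2 size factors (0.0509), with all 12 libraries in 1 model (0.0664) and without any one of DP KO 1, 2 or 3 or CD4 KO 1 or 2 (0.0814 to 0.182).

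The promoters of Nr4a3 and Nr4a1 are shown because both rose in KO about as much as in WT, and both hold several copies of TGACG, the core of the cyclic AMP response element. Each run is the 250 bases before the RefSeq start (GRCm38.p6), for Nr4a3 at chr4:48045055-48045304 and for Nr4a1 at chr15:101266596-101266845, both on the plus strand. Both RefSeq starts lie inside the gene as the deposited tables bound it (Nr4a1 from base 101253902), so the runs are upstream of the RefSeq start and not of the outermost annotated one. Capitals mark TGACG or its reverse complement CGTCA, and in Nr4a1 also CGCCCCCGC, the reverse complement of the Egr motif GCGGGGGCG.
Nr4a3: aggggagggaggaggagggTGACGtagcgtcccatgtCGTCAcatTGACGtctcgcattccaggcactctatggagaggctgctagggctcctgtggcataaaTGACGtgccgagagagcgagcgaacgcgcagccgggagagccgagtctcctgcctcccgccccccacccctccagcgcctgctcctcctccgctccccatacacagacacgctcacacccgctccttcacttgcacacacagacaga
Nr4a1: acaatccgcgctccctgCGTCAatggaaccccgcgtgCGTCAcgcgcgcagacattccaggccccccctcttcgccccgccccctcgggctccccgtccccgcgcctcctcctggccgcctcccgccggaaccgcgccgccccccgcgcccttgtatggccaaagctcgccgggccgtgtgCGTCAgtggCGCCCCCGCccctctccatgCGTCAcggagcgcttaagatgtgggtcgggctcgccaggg
Each run holds 4 matches of TGACG on either strand, and that of Nr4a1 holds 1 of the Egr motif; no match overlaps another. TGACG is found in 17.8% and GCGGGGGCG in 2.57% of the 32851 windows. Of the 9 receptor response genes matched to the table, 6 held TGACG (Egr2, Nr4a1, Nr4a3, Itm2a, Id3 and Nfkbid), among them Itm2a, Id3 and Nfkbid, whose stage difference differed from that of WT. Of the 17 maturation and egress genes matched, 5 held TGACG. A gene was counted if any of its windows held the motif, while the percentages are per window, so they are not like for like. A match is not a shown binding site.

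Genes of maturation and exit from the thymus rose in KO, most of them by less than in WT. Of 20 genes in the list, 19 were higher in CD4 KO, against 13.9% of all genes tested, with a median log2 fold change of 1.57 against 3.63 in WT. The difference was called for 16, all with the smaller gain in KO, against 13.4% of all genes tested with a more negative difference. S1pr1, the receptor that guides cells out of the thymus (chr3:115710433-115715055, minus strand), stood at 8.49, 11.6 and 17.1 CPM in DP KO 1 to 3 and 171, 154 and 149 CPM in CD4 KO 1 to 3. The CD4 KO libraries were close together and well above the DP KO libraries. Its log2 fold change was 3.70 ± 0.23 in KO and 6.28 in WT (difference -2.60, adjusted p = 2.01e-05).

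Il7r, the receptor chain for the survival cytokine interleukin 7 (chr15:9506159-9529941, minus strand), gained less in KO, with the CD4 KO level near that of CD4 WT. It stood at 152, 169.9 and 123 CPM in DP KO 1 to 3 and 479.6, 521 and 434 CPM in CD4 KO 1 to 3, without overlap. DP KO was already high: its mean was 148 ± 23.5 CPM (SD, n = 3), against 8.33 ± 1.75 in DP WT and 472 ± 13.9 in CD4 WT. Between the stages it gained 1.71 ± 0.12 in KO and 5.81 in WT (difference -4.13, adjusted p = 3.20e-08). Il6ra, the interleukin 6 receptor, gained 0.90 ± 0.15 in KO and 5.57 in WT, the most negative difference among the named genes (-4.69, adjusted p = 1.55e-07).

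Ccr7, the chemokine receptor that draws selected cells into the medulla (chr11:99144199-99155077, minus strand), stood at 2.50, 8.19 and 1.92 CPM in DP KO 1 to 3 and 47.0, 41.5 and 24.7 CPM in CD4 KO 1 to 3. DP KO 2 was the highest of the DP KO libraries and still below every CD4 KO library. Ccr7 thus gained 3.18 ± 0.51 on the log2 scale (adjusted p = 0.00321) in KO and 5.50 in WT. Itgb7, an integrin chain used in homing, gained 1.30 ± 0.10 and 3.74, and the survival factor Bcl2 gained 1.72 ± 0.10 and 3.52. Klf2, which drives S1pr1, gained 1.51 ± 0.45 (adjusted p = 0.0449), a call lost with DESeq2 (0.0698) and without any one of DP KO 1, DP KO 2 and CD4 KO 1 to 3 (0.0766 to 0.124).

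Members of 1 gene family differed in this respect. Gimap5, a GTPase that supports lymphocyte survival, gained 1.62 ± 0.11 in KO and 1.58 in WT, a difference of 0.02 ± 0.13 (adjusted p = 0.92). Its neighbours in the same family rose by less than in WT: Gimap3 gained 3.59 ± 0.30 and 5.74, Gimap4 3.25 ± 0.25 and 5.68, and Gimap6 0.70 ± 0.07 and 1.48. Emb, an adhesion protein, was the 1 member that did not pass in KO, at -0.13 ± 0.09. With the replicate block the differences of Klf2 (-1.33, adjusted p = 0.0115) and Emb (-0.37, adjusted p = 0.0116) were called as well.

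**Figure D5:**
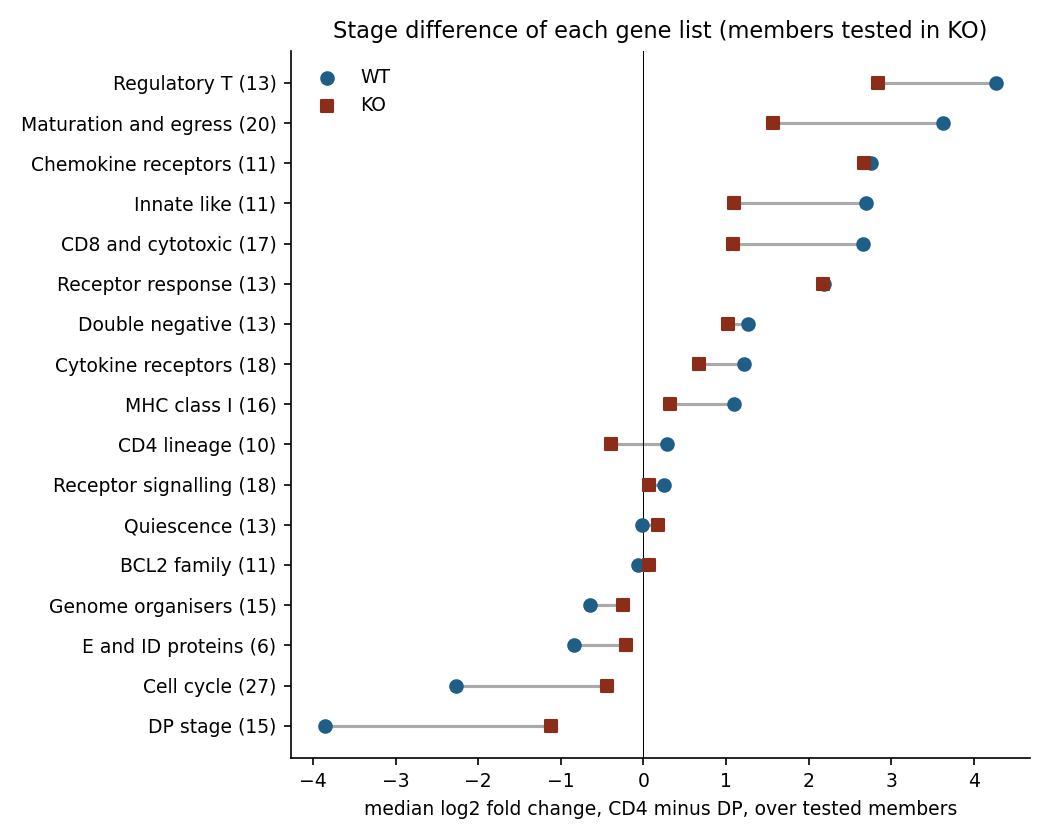
Median log2 fold change of CD4 minus DP (x axis) over the tested members of each gene list (y axis, number tested in KO in brackets), in WT and in KO, joined by a line. The medians of the receptor response list are 2.17 and 2.19, while those of the DP stage list are -1.12 in KO and -3.86 in WT.

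The genes of CD4 lineage choice split. In KO the CD4 cells held more RNA of 4 of these 10 genes and less of 6, against 13.9% and 7.82% of all genes tested. In WT the counts were 5 and 4, against 28% and 27.1% of all genes tested. Zbtb7b, which encodes the CD4 lineage factor ThPOK (chr3:89377644-89393673, minus strand), stood at 1.00, 7.13 and 0.254 CPM in DP KO 1 to 3 and 41.5, 33.0 and 20.1 CPM in CD4 KO 1 to 3. All CD4 KO libraries were above all DP KO libraries, of which DP KO 2 was the highest, and far below the 355 to 413 CPM of CD4 WT. The log2 fold change of 3.50 ± 0.85 (adjusted p = 0.0206) was not called without DP KO 1, CD4 KO 1 or CD4 KO 2 (0.0737, 0.0721 and 0.0595). It differed from the 6.75 of WT by -3.29 (adjusted p = 0.0138), a call lost with limma-voom (-2.33, adjusted p = 0.0726) and without DP KO 2 (-1.25, adjusted p = 0.182). With 1 DP WT library left, without DP WT 1 and 2, the difference was larger, at -3.84, and was not called (adjusted p = 0.0766).

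Cd40lg, the CD40 ligand of helper cells, stood at 0.509, 2.46 and 0.346 CPM in DP KO 1 to 3 and 24.0, 15.3 and 12.7 CPM in CD4 KO 1 to 3. DP KO 2 again stood above the other DP KO libraries, and the groups did not overlap. Cd40lg gained 3.97 ± 0.61 (adjusted p = 0.00276) in KO and 6.45 in WT. The difference of -2.51 (adjusted p = 0.0126) was -1.19 and not called without DP KO 2 (0.0626). It stayed at -2.40 with 1 DP WT library left, without DP WT 1 and 2, where it was not called (0.137).

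Gata3, a factor that acts upstream of Zbtb7b, went the other way. Its log2 fold change was -0.47 ± 0.08 in KO (adjusted p = 0.00424) and 0.73 in WT, a difference of -1.22 (adjusted p = 1.98e-05). Its mean was 353 ± 29.6 CPM in DP KO, 252 ± 14.0 in CD4 KO, 111 ± 4.49 in DP WT and 184 ± 25.4 in CD4 WT (SD, n = 3 each). Tox, needed for the CD4 lineage, gained 0.62 ± 0.09 in KO and 1.43 in WT, and Lef1, which works with Tcf7, gained 0.85 ± 0.17 and 1.52. Myb, a factor of the DP stage that also acts before Gata3, fell by 0.62 in KO and 3.26 in WT, leaving 2.62 between them (adjusted p = 2.30e-08). Cd4 itself was -0.58 ± 0.08 in KO and -0.36 in WT, at 979.5, 984 and 1021 CPM in DP KO 1 to 3 and 676, 602 and 694 CPM in CD4 KO 1 to 3.

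Regulatory T cell genes rose in KO. Of 13 genes in the list, 12 were higher in CD4 KO and 1, Il2ra, was lower, against 13.9% and 7.82% of all genes tested, with a median log2 fold change of 2.84 against 4.27 in WT. Foxp3, the factor that defines these cells (chrX:7579676-7595243, plus strand), stood at 1.18, 1.32 and 0.855 CPM in DP KO 1 to 3 and 25.8, 26.1 and 44.1 CPM in CD4 KO 1 to 3. CD4 KO 3 was the highest, and all 3 were far above DP KO. Foxp3 gained 4.84 ± 0.28 (adjusted p = 3.28e-05) in KO and 5.64 in WT, a difference of -0.83 ± 0.44 that did not pass (adjusted p = 0.194).

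Among the partners of Foxp3, Izumo1r (folate receptor 4) gained 4.58 ± 0.32 in KO and 5.44 in WT, and Tnfrsf9, which encodes the costimulatory receptor 4-1BB, gained 4.42 ± 0.30 and 4.94. Ikzf4 (Eos) gained 2.90 ± 0.19 and 4.95, with a called difference of -2.07. Ikzf2 (Helios) gained more in KO, 1.55 ± 0.07 against 0.44 (difference 1.09, adjusted p = 0.000155). Il2ra, the interleukin 2 receptor alpha chain, stood at 411, 454 and 356 CPM in DP KO 1 to 3 and 182, 289 and 245 CPM in CD4 KO 1 to 3. Every KO library, DP included, was above the 12.5 ± 5.58 CPM of DP WT and the 35.2 ± 5.62 CPM of CD4 WT (SD, n = 3). Its log2 fold change was -0.75 ± 0.16 in KO and 1.52 in WT (difference -2.30, adjusted p = 0.000199).

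Of 17 genes of the CD8 and cytotoxic list, 8 were higher and 3 lower in CD4 KO, against 13.9% and 7.82% of all genes tested, with a median of 1.08 against 2.66 in WT. The 3 lower genes were Cd8a, Cd8b1 and Gzma. The integrin Itgae gained 3.30 ± 0.30 in KO and 2.47 in WT, and the protease inhibitor Cst7 gained 2.01 ± 0.18 and 3.56. Xcl1 and Prf1, which encode a chemokine and the pore-forming perforin, gained 2.86 and 1.27 in KO and 3.24 and 1.28 in WT. Klrd1, Klrc1 and Gzmb did not pass in KO, at 0.40, 0.62 and 0.78, where WT gained 3.96, 4.83 and 4.39, and the difference was called for each. Their DP KO means were 3.14, 1.72 and 5.74 CPM, above the 0.516, 0.104 and 0.486 CPM of DP WT. In CD4 KO the means were 4.11, 2.62 and 9.77 CPM, against 8.85, 3.10 and 10.2 in CD4 WT. Klrc1 was near the floor of 3 counts in DP WT, so the size of its WT fold is uncertain.

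In the innate-like list, 6 of 11 genes were higher and 1, Maf, lower in CD4 KO, or 8 and 3 with the replicate block. Over all genes tested 13.9% were higher and 7.82% lower, so the 1 lower gene is near that share. The difference from WT was called for 9, against 27.8% of all genes. Il18r1, an interleukin 18 receptor chain, gained 1.49 ± 0.14 in KO and 5.12 in WT. Maf, a factor of follicular and innate-like T cells, stood at 342, 365 and 267 CPM in DP KO 1 to 3 and 149, 166 and 186 CPM in CD4 KO 1 to 3. All KO libraries were above DP WT, at 3.32 ± 0.690 CPM, and CD4 WT, at 15.5 ± 2.56 CPM (SD, n = 3). Its stage difference was -0.94 ± 0.13 in KO and 2.23 in WT (difference -3.21, adjusted p = 6.08e-07). Id2 gained 1.67 ± 0.12 and 2.72, and the adhesion receptor Cd44 gained 2.49 ± 0.23 and 2.54, a difference of -0.07 ± 0.29.

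Cytokine receptor genes rose in part in KO. Of 18, 10 were higher and 4 lower in CD4 KO (WT, 14 and 2), against 13.9% and 7.82% of all genes tested, and the difference was called for 13, against 27.8%. Il2rb, the beta chain shared by the interleukin 2 and 15 receptors, gained 3.91 ± 0.20 in KO and 5.17 in WT. Il10ra, the interleukin 10 receptor, gained more in KO, 2.55 ± 0.11 against 0.84 (difference 1.69, adjusted p = 2.79e-05), at 16.5, 16.3 and 12.4 CPM in DP KO 1 to 3 and 88.7, 90.2 and 82.7 CPM in CD4 KO 1 to 3. For this receptor the CD4 KO libraries were all higher and tightly placed. Il12rb2, an interleukin 12 receptor chain, was 1 of the 4 that were lower, at -0.70 in KO and 0.39 in WT, a called difference of -1.11.

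Chemokine receptors rose in KO: 9 of 11 were higher in CD4 KO, the same 9 as in WT and against 13.9% of all genes tested, with medians of 2.67 and 2.75. Ccr6 gained 4.22 ± 0.32 and 4.11 and Ccr4 gained 1.63 ± 0.23 and 1.97, without a called difference. Ccr2 gained 3.57 ± 0.24 and 2.75, a difference of 0.80 ± 0.30 (adjusted p = 0.0692). Ccr8, a receptor of activated and regulatory T cells, and Cxcr3, a receptor of effector cells, gained less in KO, by 2.67 ± 0.38 and 2.81 ± 0.31 against 6.17 and 5.01. Ccr9, which holds DP cells in the cortex, did not pass in KO at -0.35, and Cxcr4 fell by 0.40 in KO and by 2.10 in WT, a called difference of 1.67.

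Of 16 genes of MHC class I presentation, 10 were higher in CD4 KO, against 13.9% of all genes tested, with a median log2 fold change of 0.32 against 1.10 in WT. The difference was called for 13, all with the smaller gain in KO, against 13.4% of all genes with a more negative difference. B2m, the light chain of class I molecules, gained 0.66 ± 0.07 in KO and 2.36 in WT. The heavy chain H2-K1 gained 2.72 ± 0.22 and 4.32, and Nlrc5, the factor that switches on class I genes, gained 1.95 ± 0.22 and 4.34. H2-K1, H2-D1 and Tap1 are annotated on more than 1 sequence, so their counts are uncertain.

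Genes of the receptor signalling machinery moved in both directions between the KO stages. Of 18, 6 were higher and 4 lower, against 13.9% and 7.82% of all genes tested, with a median of 0.07. The 6 became 3 without DP KO 1 or CD4 KO 1, settings in which 9.24% and 9.05% of all genes tested were higher. The 3 of 18 were not tested against these shares. Fyn, a kinase of the receptor complex, gained 0.91 ± 0.07 in KO and 2.09 in WT, and the costimulatory receptor Cd28 gained 1.16 ± 0.10 and 0.89. Themis, which sets the response of DP cells to weak signals, was -0.59 ± 0.10 in KO and -1.81 in WT (difference 1.19, adjusted p = 3.20e-05), and the adaptor Lat was -0.48 ± 0.08 and -0.45.

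The stage difference of division genes was smaller in KO than in WT. Of 27 cell cycle genes, 7 were lower in CD4 KO, against 7.82% of all genes tested, and 20 did not pass, with a median log2 fold change of -0.44, whereas all 27 were lower in CD4 WT, with a median of -2.27. The difference was called for all 27, each more positive in KO, against 14.4% of all genes tested. Their summed level was 5090 to 7480 CPM in DP KO and 4480 to 5350 in CD4 KO, which overlap, against 6750 to 7740 in DP WT and 1760 to 2390 in CD4 WT. Cdc20, an activator of the anaphase ligase, stood at 139, 129.9 and 166 CPM in DP KO 1 to 3 and 89.5, 90.0 and 99.3 CPM in CD4 KO 1 to 3. Its log2 fold change was -0.62 ± 0.10 (adjusted p = 0.00337) in KO and -2.68 in WT. The count of 7 became 3 without DP KO 1, CD4 KO 1 or CD4 KO 2, 12 without CD4 KO 3, 17 without DP KO 2 and 18 with the replicate block.

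Of 15 genome organisers, 6 were lower and 1 higher in CD4 KO, against 7.82% and 13.9% of all genes tested (WT, 14 and 1). The difference from WT was more positive in KO for 9 and more negative for 2, Satb1 and Lmna. Over all genes tested these shares were 14.4% and 13.4%, so the 2 are near theirs. The 6 lower genes became 3 without DP KO 1, 2 without CD4 KO 1 or CD4 KO 2, and 11 with the replicate block. Besides Satb1, the lamin B receptor Lbr was -0.50 ± 0.08 in KO and -1.59 in WT. Hmgb2, a DNA-bending protein abundant in dividing cells, was -0.45 ± 0.13 and -2.38. Among survival genes, Bcl2l1, which encodes BCL-XL, the protein that keeps DP cells alive, was -1.04 ± 0.14 in KO and -2.04 in WT. Bcl2l11, which encodes the death protein BIM, was lower in CD4 KO and higher in CD4 WT, at -0.44 ± 0.07 and 0.77 (difference -1.24, adjusted p = 0.000176).

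The largest gains in KO were mostly of genes with little RNA in DP KO. They were Nrp2, Trpm1, Itgb8, Foxp3, Chst3, Myo3b, Tlr1, Izumo1r, Tnfrsf9 and Dbn1, at log2 fold changes of 5.62 to 4.41. Nrp2, a semaphorin co-receptor, stood at 0.0329, 0.275 and 0.185 CPM in DP KO 1 to 3 and 9.29, 8.91 and 5.26 CPM in CD4 KO 1 to 3. DP KO 1 was under the floor of 3 counts, so the size of this fold is uncertain although the groups did not overlap. Itgb8, an integrin chain that activates TGF-beta, stood at 0.296, 0.275 and 0.346 CPM and 10.7, 9.02 and 10.6 CPM in the same order. Among the largest falls were those of Cd8a, Nog, Rxfp1, Chrna9, Pde6a, Medag, Sdc4 and Xrra1, from -3.36 to -1.40. After Cd8a and Nog, at -2.29, the next of these was Rxfp1 at -1.55.

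Most stage genes of KO were stage genes of WT. Of the 1394 genes at least 2-fold higher in CD4 KO, 1030 (73.9%) were called higher in WT, 18 were called lower, 242 did not pass and 104 were not tested there. Over all genes tested in WT, 28% were higher and 27.1% lower. For 91 genes that did not pass in WT the KO difference was larger by the test of the difference. Dusp4, a phosphatase that restrains MAP kinases, stood at 2.66, 4.46 and 4.97 CPM in DP KO 1 to 3 and 47.8, 39.8 and 48.8 CPM in CD4 KO 1 to 3. Every CD4 KO library was far above every DP KO library. Its stage difference was 3.53 ± 0.22 in KO and 0.18 in WT (difference 3.33, adjusted p = 8.62e-07). The others named by the same rule were Jchain, Adamtsl2, Slc9a7, Mpp4, Itga9, Sema4c and Fgd6, at 3.47 to 1.69; the call of Jchain was lost with limma-voom (0.0668) and without CD4 KO 1 (0.0513). Of the 164 genes at least 2-fold lower in CD4 KO, 137 (83.5%) were called lower in WT, against 27.1% of all genes tested there.

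A small group ran against WT. Of the WT stage genes, 34 were called in the opposite direction in KO, 11 of those gained and 23 of those lost in WT. The 11 became 7 without CD4 KO 1, and the 23 became 8, 9 or 10 without DP KO 1, CD4 KO 1 or CD4 KO 2. Maf and Il2ra, given above, were among the 11, as was Actn2, an actin crosslinker, at -1.13 in KO and 2.01 in WT. Lag3, an inhibitory receptor that binds MHC class II, was among the 23: its log2 fold change was 1.91 in KO, against WT, where it was lower in CD4 cells, with a mean of 12.5 ± 1.29 CPM in DP KO and 46.5 ± 6.70 in CD4 KO (SD, n = 3). Scn4b, a sodium channel subunit, gained 2.30 ± 0.21 in KO and was -1.98 in WT, at 1.38, 2.18 and 1.43 CPM in DP KO 1 to 3 and 7.04, 8.69 and 8.50 CPM in CD4 KO 1 to 3.

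Markers of other cells were present in the KO libraries, highest in sum for erythroid transcripts, and some were called between the stages. For myeloid and dendritic cells, 7 of the 8 tested of 9 markers were higher in CD4 KO, against 13.9% of all genes tested. The 7 became 3 without CD4 KO 1 and 2 without CD4 KO 2. The summed level was 10 to 14.3 CPM in DP KO and 19.3 to 51.4 in CD4 KO. For B cells, 4 of 7 were higher and 1 lower, against 13.9% and 7.82% of all genes tested, so the 1 lower is near its share. Without DP KO 1, CD4 KO 1 or CD4 KO 2 only 1 was higher. In these settings 9.24%, 9.05% and 9.11% of all genes tested were higher, so a single gene of so few is near these shares. The sums for B cells were 21.1 to 26.7 CPM in DP KO and 24 to 33.9 in CD4 KO. Of 8 stromal and epithelial markers, 2 of the 5 tested were higher, Epcam and Col1a1, against 13.9% of all genes tested. Their sums were 12.1 to 16.0 CPM in DP KO and 18.5 to 22.8 in CD4 KO, with Krt5 and Foxn1 at no more than 6 and 4 counts in any KO library. Globin and other erythroid transcripts summed to 67.9 to 332 CPM in DP KO and 49.2 to 220 in CD4 KO. Of the gamma-delta markers only Sox13 was tested, a gene annotated on 2 sequences and so uncertain. It rose by 1.07 ± 0.20 (adjusted p = 0.00683), from 3.96, 4.24 and 3.35 CPM in DP KO 1 to 3 to 7.31, 10.3 and 6.32 CPM in CD4 KO 1 to 3. The constant genes Trac, Trbc1, Trbc2 and Trdc have no counts in any library, so the gamma-delta constant gene gives no check. The part of these markers in the stage differences was not tested.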

How the data were processed

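Poly(A) RNA was extracted with TRIzol from sorted cells and sequenced as paired reads, per the labels' protocols. The authors deposited raw counts per gene in 1 table for each stage, against mm10. The submitters' processing notes name Subread 1.0.1, DESeq2 and R 4.1.5 without a role, and per the file headers the DP table has the layout of featureCounts. Strandedness is not given in the sources used here, so reads of genes that overlap cannot be assigned to a strand. Genes annotated on several sequences (2057) may share reads: their counts, among them those of Ets2, Cd28, Tnfrsf9, Egr2, Itgae, H2-Q7, Slfn1, H2-K1, H2-D1, Tap1 and Nog, are uncertain.

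The counts of each stage were joined by gene. Fits used edgeR 4.0.16 in R 4.3.3 (TMM factors, filterByExpr, quasi-likelihood test, Benjamini-Hochberg adjustment over all genes tested, call at an adjusted p under 0.05): CD4 KO against DP KO, CD4 WT against DP WT, and the interaction over all 12 libraries. CPM use TMM factors over all 12. The position measure was added after the data were seen. Alternatives were DESeq2 1.42.0, its size factors, limma-voom (limma 3.58.1), no filter, a mean count of at least 10, all 12 libraries in 1 model, the replicate block and leaving out each library. The procedure was tested on simulated data. Figures were drawn with matplotlib 3.10.9.

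The members and gene lists were chosen with earlier results of these data known, so list counts are descriptions. Named genes were Satb1; all tested members of the DP stage, CD4 lineage and maturation lists; up to 5 of each other list by KO adjusted p; the 10 largest changes each way in KO, the 8 largest interactions each way among WT stage genes, and the 8 largest changes in KO only, at an average log2 CPM of at least 2. Some genes that this rule names are not reported here. Cd69, Cd5, Egr1, Egr2, Nr4a1, Cd83, Itm2a, Gzma, Gzmb, Klrd1, Klrc1, Xcl1, Prf1, Il12rb2, Ccr9, Cxcr4, Actn2 and Lag3 were named after their values were seen.

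The labels give the replicate number as the batch, which pairs same-numbered libraries. The correlation of their deviations from the group means was 0.23, 0.365 and 0.486 for DP KO and CD4 KO 1, 2 and 3, against -0.431 to 0.214 for different numbers. Replicates differed beyond counting noise, so all were kept apart. The chi-square per degree of freedom was 15.3 to 45.8 within the KO groups and 13.8 to 25.9 within the WT groups. A planned mean segment number of the receptor alpha joining genes could not be computed, since these and the receptor constant genes (64 in all) hold 0 counts in every library.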

Additional observations from a re-analysis of the deposited data

Results flagged for a closer look

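The stage difference itself differed between KO and WT for 2649 genes with a more positive and 2467 with a more negative CD4 minus DP difference in KO, by the edgeR test of the interaction over all 12 libraries. Of 163 genes named by the rule, 110 had such a difference, against 27.8% of all genes tested. Of the 110, 28 had one of at least 3 on the log2 scale. Some of the 110, and some of the 28, entered the naming rule through this same difference, so these counts and sizes are a description. No explanation was weighed for any of them.

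Among the more positive were DP stage genes, Ptcra at 3.74, Rag2 at 3.26, Rag1 at 3.16 and Arpp21 at 3.04. Others with a more positive difference were Scn4b at 4.26, Chst3 at 3.79, the matrix proteoglycan Hspg2 at 3.75, the calcium channel Cacna1e at 3.65, Dusp4 at 3.33, Jchain at 3.21 and Dbn1 at 3.15. The structural RNA genes Rn7s2, Rn7s1, Rn18s-rs5 and Rn7sk, at 3.82, 3.78, 3.77 and 3.72, moved with them. These 4 RNAs are not polyadenylated, so poly(A) selection should leave them out. The level of Rn18s-rs5 in DP WT reached 9030 CPM.

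Among the more negative were cytokine and chemokine receptors, Il6ra at -4.69, Il7r at -4.13, Il18r1 at -3.66 and Ccr8 at -3.54, and the factors Zbtb7b at -3.29 and Maf at -3.21. The rest were Pyroxd2 at -4.32, Oas2 at -4.30, Amigo2 at -4.30, the prostacyclin receptor Ptgir at -4.26, the killer cell receptor Klrk1 at -4.07, the activin-like receptor Acvrl1 at -4.05 and Slfn1 at -3.34. The calls of Zbtb7b, Acvrl1 and Jchain were lost with limma-voom (adjusted p = 0.0726, 0.0734 and 0.0849). With 1 DP WT library left, without DP WT 1 and 2, their differences were -3.84, -2.64 and 2.83 and were not called (0.0766, 0.237 and 0.131). Without DP KO 2, the calls of Zbtb7b, Acvrl1 and Pyroxd2 were lost (-1.25, -2.35 and -3.25; adjusted p = 0.182, 0.325 and 0.0626). That of Dbn1 was 1.20 and not called in the same setting with 1 DP WT library (adjusted p = 0.456).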

How the results depend on the processing

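With the replicate block, 2976 genes were lower in KO, 930 of the genes lost in WT were called the same way, and 20 genes gained and 45 lost in WT were called the opposite way. Without a low-count filter, 21 and 42 were called the opposite way, and for genes lost in WT the positions of DP KO and CD4 KO became 38% and 57.6%. In 1 model over all 12 libraries, 38 genes lost in WT were called the opposite way. Without DP WT 1 and 2, chosen after seeing the data, the single DP WT library left is assumed to vary like the other groups; with these fewer libraries 3114 genes were lower in WT, the interaction called 1741 and 1600, 7 genes gained in WT were called the opposite way, and the positions of DP KO and CD4 KO for genes lost in WT became 23.5% and 47.6%. The other alternatives kept each count within 1.5 times its reported value and each position within 1 SD. Leaving out 1 library at a time gave 1562 to 2428 genes higher and 633 to 1523 lower in KO, 4252 to 4880 and 4100 to 4783 in WT, and 2138 to 2636 and 2077 to 2821 for the interaction. For genes gained in WT it gave 1060 to 1429 called the same way, 801 to 1005 of them at least 2-fold, 7 to 14 called the opposite way, 1011 to 1237 smaller in KO, and positions of 7.74% to 14.7% for DP KO and 61.5% to 65.9% for CD4 KO. For genes lost in WT the ranges were 370 to 671, 93 to 165, 8 to 31, 1330 to 1468, 27.3% to 37.3% and 50.6% to 57.7%, both highest positions being those without DP WT 3. Of the 163 named genes, 160 had the same KO call with DESeq2 size factors and 149 with the replicate block, which brought 14 more past the threshold and lost none of the 110 interaction calls. No named gene called in KO changed direction under these alternatives. Of those that did not pass, leaving out 1 library gave log2 fold changes of -0.30 to 0.14 for Cacna1e (0.14 without DP KO 2, 0.10 without CD4 KO 3), -0.17 (without DP KO 3) to 0.57 for Hspg2 and -0.084 (without CD4 KO 2) to 0.22 for Pdgfrb. The cause of these changes was not tested. With 3 libraries a group, the smallest p that an exact permutation test allows is 0.1, so single values were not tested that way. The planned mean Traj segment number and its alternatives were not run, since those genes hold no counts. Low genes limit the folds: at 3 counts a library resolves 0.0465 to 0.134 CPM.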
